A study of Mus musculus with 14 samples.

Results

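Gasdermins and inflammasome genes were examined in small intestinal organoids of 4 genotypes. The set was 9 genes chosen by symbol: *Nlrp6*, *Pycard*, *Casp1*, *Casp4*, *Il18*, *Gsdmd*, *Gsdmc2*, *Gsdmc3* and *Gsdmc4*. Of the 18781 genes in the deposited table, 7 of these 9 had a row that was used here, and 6 of the 7 passed the filter on low values. *Gsdmc2* and *Gsdmc3* were not analysed here.

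Organoids were grown in Matrigel and Intesticult medium from intestinal stem cells of mice, without further treatment, and their total RNA was sequenced as stranded mRNA libraries. WT organoids (n = 4) carried floxed alleles of *Atg16l1* and *Rnaseh2b* and no Cre recombinase, so the control had both floxed genes intact. *Atg16l1*ΔIEC (n = 4) and *Rnaseh2b*ΔIEC (n = 2) organoids were homozygous for floxed *Atg16l1* or floxed *Rnaseh2b* and carried VillinCre+/-, and *Atg16l1/Rnaseh2b*ΔIEC organoids (n = 4, DKO below) were homozygous for both floxed genes with VillinCre+/-. *Villin-Cre* removes the floxed exons in intestinal epithelial cells, *Atg16l1* encodes a core protein of autophagosome formation, and *Rnaseh2b* encodes a subunit of RNase H2, which removes ribonucleotides from DNA. The authors excluded further *Rnaseh2b*ΔIEC samples for their read counts, and the ages of the donor mice are not given in the sources used here. The labels do not say whether libraries of a genotype came from separate animals or cultures, so p-values measure the spread between these libraries, which may be technical.

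An inflammasome is a protein platform on which a sensor such as NLRP6 recruits the adaptor ASC, the product of *Pycard*, and through it pro-caspase-1. Active caspase-1 cleaves the precursor of interleukin-18 and the pore-forming protein gasdermin D, whereas caspase-4 (also called caspase-11 in mice) binds bacterial lipopolysaccharide directly and cleaves gasdermin D as well. In the intestine, epithelial cells are a main source of interleukin-18, and NLRP6 is known from work on goblet cell mucus, the microbiota and epithelial defence. The *Gsdmc* genes are a cluster of near-identical neighbours known from epithelial responses to type 2 cytokines.

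Values were the authors' normalised values on a log2 scale, so a difference of 1 is a 2-fold change, and differences were tested with limma across the 12802 genes whose mean reached 3.32, with Benjamini-Hochberg adjustment at 0.05. The deleted genes were checked first. *Atg16l1* was between 6.74 and 7.35 in *Atg16l1*ΔIEC, between 8.14 and 8.57 in DKO and at 9.43 or above in WT and *Rnaseh2b*ΔIEC libraries. *Rnaseh2b* was between 7.15 and 7.21 in *Rnaseh2b*ΔIEC, between 7.68 and 7.92 in DKO and at 8.41 or above in the others. These values cover whole genes, floxed and other exons together, and the deleted gene was left at a higher level in DKO than in its single knockout, by 1.46 for *Atg16l1* (limma adjusted p = 2.0e-05) and 0.63 for *Rnaseh2b* (limma adjusted p = 0.00074). Library names place the WT libraries in lane 1 and the *Atg16l1*ΔIEC and *Rnaseh2b*ΔIEC libraries in lane 2, while DKO libraries 1 and 2 were in lane 2 and 3 and 4 in lane 1. In the 3 genotypes with 4 libraries, libraries 1 and 2, and libraries 3 and 4, deviated together from the genotype mean, with correlations across genes of 0.41 to 0.86 in 6 of 6 such pairs. The labels do not say what these pairs share.

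The organoids had the markers of their labelled tissue. All 7 epithelial markers, such as *Epcam* and *Vil1*, passed the filter, and their summed level was 16.77 to 16.87 on the log2 scale in the 14 libraries. Of 8 leukocyte markers, *Ptprc*, which encodes CD45, *Adgre1* of macrophages and *Cd3e* of T cells had mean values of 0.49, -1.97 and -1.33, all under the filter. *Cd14*, *Cd68* and *Itgam* passed the filter, and none of the 3 differed between genotypes in limma. The summed level of the list was 7.69 to 8.06 over the 14 libraries, with *Rnaseh2b*ΔIEC (7.69 to 7.75) overlapping DKO (7.69 to 8.06) and below WT and *Atg16l1*ΔIEC (7.81 to 8.01).

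The genes lie on 3 chromosomes of GRCm38. *Casp1* (ENSMUSG00000025888, chr9:5298517-5307265) and *Casp4* (ENSMUSG00000033538, chr9:5308828-5336783) are neighbours on the plus strand with 1562 bases between them, and *Il18* (ENSMUSG00000039217, chr9:50554827-50581840, plus strand) is on the same chromosome. *Nlrp6* (ENSMUSG00000038745, chr7:140920902-140929192, plus strand) and *Pycard* (ENSMUSG00000030793, chr7:127989708-127993867, minus strand) are both on chromosome 7. *Gsdmd* (ENSMUSG00000022575, chr15:75862327-75867408, plus strand) and *Gsdmc4* (ENSMUSG00000055748, chr15:63891264-63912297, minus strand) are both on chromosome 15.

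The 250 bases before the RefSeq transcription start are shown for the sensor and the cytokine, whose levels differed most between genotypes, and for the neighbouring caspases. Capitals mark matches to searched motifs, and the sequences are given 5′ to 3′ on the coding strand of GRCm38.p6 (chr7:140920652-140920901, chr9:50554450-50554699, chr9:5298267-5298516 and chr9:5308599-5308848, in the order printed).
Nlrp6: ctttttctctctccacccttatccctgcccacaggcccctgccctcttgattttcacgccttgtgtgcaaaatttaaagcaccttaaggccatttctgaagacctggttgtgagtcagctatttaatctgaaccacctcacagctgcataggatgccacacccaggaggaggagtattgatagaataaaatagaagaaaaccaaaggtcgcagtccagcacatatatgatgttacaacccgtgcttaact
Il18: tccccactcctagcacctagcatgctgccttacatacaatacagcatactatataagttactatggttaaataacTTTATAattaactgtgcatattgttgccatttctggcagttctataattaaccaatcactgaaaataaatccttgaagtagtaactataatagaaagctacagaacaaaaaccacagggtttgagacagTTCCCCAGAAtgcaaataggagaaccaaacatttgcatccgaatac
Casp1: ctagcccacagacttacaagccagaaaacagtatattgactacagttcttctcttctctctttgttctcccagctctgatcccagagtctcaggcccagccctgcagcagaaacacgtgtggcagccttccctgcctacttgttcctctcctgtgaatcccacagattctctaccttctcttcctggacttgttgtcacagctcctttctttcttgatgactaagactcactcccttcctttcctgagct
Casp4: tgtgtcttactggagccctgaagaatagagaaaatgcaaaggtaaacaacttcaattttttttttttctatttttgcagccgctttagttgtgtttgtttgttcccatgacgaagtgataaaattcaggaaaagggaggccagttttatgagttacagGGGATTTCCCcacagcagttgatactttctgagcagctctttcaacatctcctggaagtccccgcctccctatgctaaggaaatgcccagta

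RefSeq entries were found for 6 of the 9 genes, namely *Nlrp6*, *Il18*, *Casp1*, *Casp4*, *Pycard* and *Gsdmc3*. They were searched on both strands for the element of interferon regulatory factors, GAAA again after a gap of 2 letters (in 2.98% of all 32851 promoters of this length), TTCNNNGAA of STAT factors (7.02%), the STAT6 form with a gap of 4 letters (5.85%), CAAAGTCCA of HNF4 (0.384%), AGGTCA of nuclear receptors (14%), TTTATNG of CDX factors (9.81%) and TATAAA (12.4%). The NF-kappaB element, GGGA and CC with T as the third of 4 letters between them (3.33%), was added after the sequences were seen. *Il18* held TTCCCCAGAA 46 to 37 bases before its start and TTTATA, the TATA element on the other strand, 175 to 170 bases before it, and *Casp4* held GGGATTTCCC 92 to 83 bases before the printed start. No 2 matches overlapped, and the windows of *Nlrp6*, *Casp1*, *Pycard* and *Gsdmc3* held none of these letters. A match describes the sequence only, and the RefSeq start of *Il18* lies before that of the annotation used for coordinates.

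The level of a gene can be compared with another gene only after division by transcript length, here the joint length of all annotated exons. On this scale, log2 per kilobase of exon, the WT order was *Nlrp6* at 10.98 ± 0.06 (SD, n = 4), *Casp1* at 10.42 ± 0.03, *Pycard* at 9.77 ± 0.05, *Gsdmd* at 8.59 ± 0.08, *Il18* at 7.88 ± 0.28 and *Casp4* at 7.37 ± 0.02. Neighbours in this order did not overlap in any WT library. The closest were *Il18*, with a lowest WT value of 7.63 per kilobase, and *Casp4*, with a highest of 7.39. The order depends on the annotated exons, which include those of minor transcripts.

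*Nlrp6* encodes the sensor and was lower in all 3 knockouts than in WT organoids, least in DKO. Its values were 13.27, 13.26, 13.38 and 13.38 in WT libraries 1 to 4 and 12.46, 12.57, 12.78 and 12.73 in *Atg16l1*ΔIEC libraries 1 to 4. They were 12.67 and 12.72 in *Rnaseh2b*ΔIEC and 12.99, 13.15, 13.12 and 13.18 in DKO libraries. The genotypes were ordered WT, DKO, *Rnaseh2b*ΔIEC and *Atg16l1*ΔIEC, with no overlap between WT and DKO or between DKO and either single knockout, while *Rnaseh2b*ΔIEC lay within the range of *Atg16l1*ΔIEC.

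*Nlrp6* fell by 0.69 on the log2 scale in *Atg16l1*ΔIEC (SE 0.06, limma adjusted p = 2.9e-05) and by 0.63 in *Rnaseh2b*ΔIEC against WT (SE 0.08, limma adjusted p = 0.00019), to 0.62 and 0.65 times the WT level. In DKO it fell by 0.22 (SE 0.06, limma adjusted p = 0.038). Against the single knockouts, DKO organoids had more *Nlrp6*, by 0.47 over *Atg16l1*ΔIEC (SE 0.06, limma adjusted p = 0.00049) and by 0.41 over *Rnaseh2b*ΔIEC (SE 0.08, limma adjusted p = 0.0030). Deletion of *Rnaseh2b* thus went with less *Nlrp6* where *Atg16l1* was intact and with more where it was deleted. DKO also had more *Atg16l1* left than *Atg16l1*ΔIEC, by 1.46, and the part of this in the *Nlrp6* result was not tested. The interaction, DKO minus *Atg16l1*ΔIEC less *Rnaseh2b*ΔIEC minus WT, was 1.10 (SE 0.10, limma adjusted p = 1.7e-05). *Rnaseh2b*ΔIEC and *Atg16l1*ΔIEC differed by 0.06 (95% interval -0.11 to 0.23, limma adjusted p = 0.68).

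All of these *Nlrp6* calls except that of DKO against WT held with lane as a covariate, with the pairs of libraries as a random block and in all 14 fits that left out 1 library. WT was in lane 1 alone and both single knockouts in lane 2 alone, so the lane term rests on the DKO libraries. In DKO lane and pair cannot be told apart. No *Nlrp6* call held with the pairs averaged. The DKO difference from WT was -0.18 with lane as a covariate (adjusted p = 0.16) and also within lane 1 (adjusted p = 0.057). It lost the call without any of the 4 WT libraries, either *Rnaseh2b*ΔIEC library or DKO library 1, 2 or 3, with values of -0.24 to -0.18 over the left-out fits and adjusted p up to 0.10.

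Markers of goblet cells, the mucus-producing lineage, were also lower in the single knockouts. The summed level of 8 goblet markers, all past the filter, was 15.93 to 16.42 in WT, 15.45 to 15.75 in *Atg16l1*ΔIEC, 15.54 to 15.69 in *Rnaseh2b*ΔIEC and 16.34 to 16.61 in DKO libraries. In limma, 5 of 8 were lower in *Atg16l1*ΔIEC than in WT and 3 of 8 in *Rnaseh2b*ΔIEC than in WT. In DKO 8 of 8 were higher than in *Atg16l1*ΔIEC. Over all genes, 19.1%, 26.7% and 25.1% were called in either direction in these comparisons, in this order. The sum in DKO was in the upper part of the WT range or above it, but its members differed. *Clca1*, a secreted goblet cell protein, was 8.44 to 8.71 in DKO against 8.99 to 9.19 in WT, below the WT range as *Nlrp6* was. *Zg16*, a mucus lectin, was 10.10 to 11.10 in DKO against 10.69 to 10.85 in WT. *Muc2*, *Tff3*, *Fcgbp*, *Spink4*, *Agr2* and *Spdef* had higher means in DKO than in WT, unlike *Nlrp6*. In DKO against WT limma called 1 of 8 goblet markers higher and 1 lower, with a median difference of 0.28. Over all genes 16.1% were called there. Bulk values cannot tell fewer cells of a type from less RNA per cell, and the part of cell composition in the *Nlrp6* result was not tested. The 6 stem cell markers were also lower in *Atg16l1*ΔIEC than in WT, 6 of 6, with a summed level of 14.72 to 15.01 against 15.32 to 15.45. The stem cell sum was 15.03 to 15.11 in *Rnaseh2b*ΔIEC and 15.23 to 15.52 in DKO, so its means (15.39 in WT, 15.32 in DKO, 15.07 in *Rnaseh2b*ΔIEC and 14.87 in *Atg16l1*ΔIEC) had the genotype order of *Nlrp6*. In DKO 5 of 6 stem cell markers were higher than in *Atg16l1*ΔIEC. Against *Rnaseh2b*ΔIEC, 2 of 6 were higher in DKO and 1 lower. Against WT, limma called 2 of 6 lower in *Rnaseh2b*ΔIEC and 1 lower in DKO. The members differed in genotype order. *Smoc2* had that of *Nlrp6*, while *Olfm4* was lowest in DKO, with a mean of 9.72 against 11.23 in WT. *Lgr5* was lowest in *Rnaseh2b*ΔIEC. *Ascl2*, *Axin2* and *Slc12a2* had higher means in DKO than in WT, unlike *Nlrp6*. Enteroendocrine sums averaged 14.56 in WT, 14.21 in *Atg16l1*ΔIEC, 14.17 in *Rnaseh2b*ΔIEC and 14.82 in DKO. Paneth sums averaged 15.07, 14.81, 14.92 and 15.62 in the same order. Against WT, 1 of 6 enteroendocrine and 1 of 7 Paneth markers were called lower in *Atg16l1*ΔIEC, and 0 of either list in *Rnaseh2b*ΔIEC. The part of these lineages in the *Nlrp6* result was not tested.

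**Figure D1:**
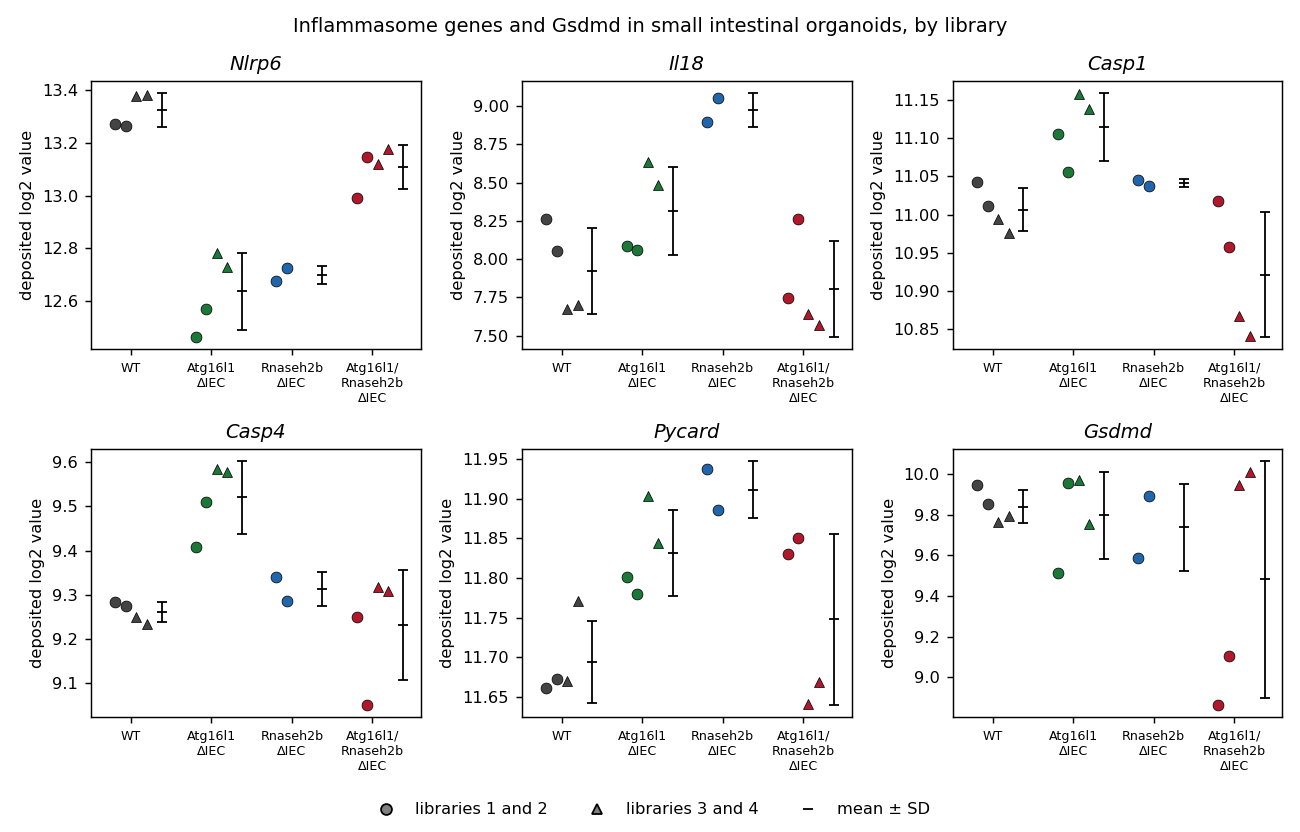
Deposited log2 value of each of the 6 genes past the filter in each of the 14 libraries, by genotype, with each panel on its own vertical axis that does not start at 0. Circles are libraries 1 and 2, triangles are libraries 3 and 4, and bars are the mean ± SD. *Nlrp6* in both single knockouts (12.46 to 12.78) lies below WT and DKO, *Il18* is highest in *Rnaseh2b*ΔIEC, and *Gsdmd* in DKO splits between libraries 1 and 2 and libraries 3 and 4.

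*Il18* encodes the cytokine precursor that caspase-1 matures, and it was highest in *Rnaseh2b*ΔIEC organoids. Its values were 8.90 and 9.05 in *Rnaseh2b*ΔIEC and 8.26, 8.05, 7.68 and 7.70 in WT libraries 1 to 4. They were 8.08, 8.06, 8.64 and 8.49 in *Atg16l1*ΔIEC and 7.75, 8.26, 7.64 and 7.57 in DKO libraries 1 to 4. Both *Rnaseh2b*ΔIEC libraries were above every other library, *Atg16l1*ΔIEC was above or within the WT range and DKO overlapped WT. Within WT and *Atg16l1*ΔIEC, libraries 1 and 2 differed from libraries 3 and 4 by more than libraries of the same pair.

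*Il18* rose 2.07-fold in *Rnaseh2b*ΔIEC against WT, by 1.05 on the log2 scale (SE 0.22, limma adjusted p = 0.0039). It fell by 1.17 in DKO against *Rnaseh2b*ΔIEC (SE 0.22, limma adjusted p = 0.0024) and by 0.51 in DKO against *Atg16l1*ΔIEC (SE 0.18, limma adjusted p = 0.0485). Differences from WT of 0.39 in *Atg16l1*ΔIEC (95% interval 0.02 to 0.77, limma adjusted p = 0.13) and -0.12 in DKO (95% interval -0.50 to 0.26, limma adjusted p = 0.68) did not pass. *Rnaseh2b*ΔIEC was above *Atg16l1*ΔIEC by 0.66 without overlap, with both in lane 2, and this did not pass (95% interval 0.19 to 1.12, limma adjusted p = 0.086). With lane as a covariate this difference passed. The interaction for *Il18* was -1.56 (SE 0.28, limma adjusted p = 0.0011).

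The rise in *Rnaseh2b*ΔIEC rests on 2 libraries, which the random block took as 1 pair although 2 libraries alone cannot show whether they are one. It was 0.65 with lane as a covariate (adjusted p = 0.175) and 0.97 without *Rnaseh2b*ΔIEC library 2 (adjusted p = 0.0526), and the interaction was -0.96 with lane (adjusted p = 0.12). The fall in DKO against *Rnaseh2b*ΔIEC was -0.97 within lane 2 and held there, with the random pair block and in all 14 left-out fits. The fall against *Atg16l1*ΔIEC lost its call in 10 of 14 left-out fits, all but those without WT library 1, *Atg16l1*ΔIEC library 1 or 2 or DKO library 2, with values of -0.66 to -0.41 and adjusted p up to 0.148. It was -0.31 with lane as a covariate and did not pass.

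Enterocyte markers, the absorptive lineage, moved with *Il18*. The summed level of 9 such markers, all past the filter, was 17.68 to 17.85 in *Rnaseh2b*ΔIEC, 16.49 to 17.16 in WT, 16.66 to 17.48 in *Atg16l1*ΔIEC and 16.23 to 16.81 in DKO libraries. Of the 9, 7 were higher in *Rnaseh2b*ΔIEC than in WT and 8 were lower in DKO than in *Rnaseh2b*ΔIEC. Over all genes, 26.7% and 25.5% were called in either direction in these 2 comparisons. The WT and *Atg16l1*ΔIEC libraries with more *Il18* were also those with the higher sums, 17.16 and 16.97 in WT libraries 1 and 2 against 16.53 and 16.49 in 3 and 4, and 17.48 and 17.22 in *Atg16l1*ΔIEC libraries 3 and 4 against 16.79 and 16.66 in 1 and 2. The part of this shift in the *Il18* result was not tested.

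**Figure D2:**
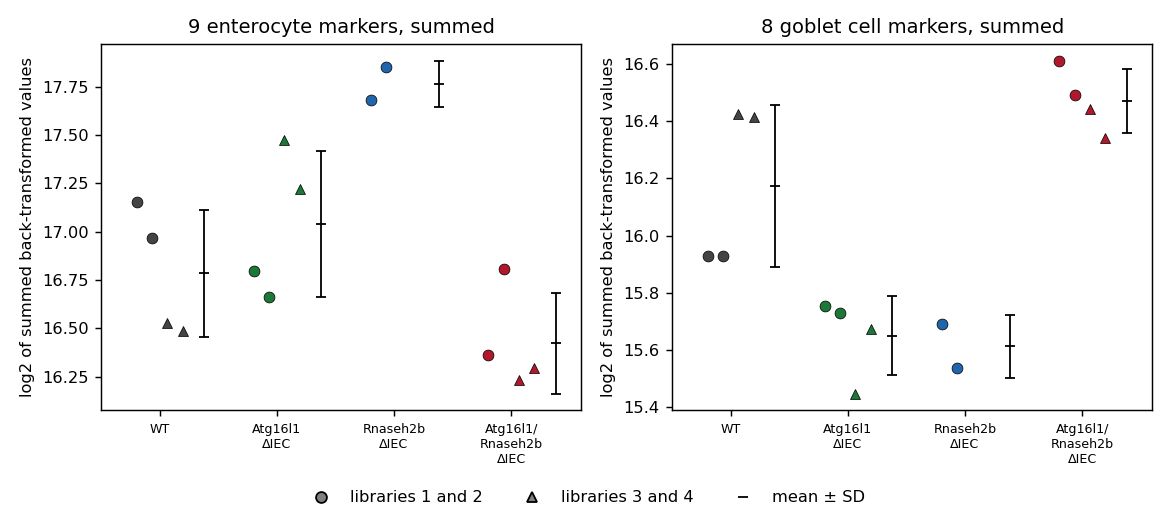
Summed level of 9 enterocyte markers (left) and 8 goblet cell markers (right) in each library, as log2 of the summed back-transformed values, by genotype, with axes that do not start at 0. Circles are libraries 1 and 2, triangles are libraries 3 and 4, and bars are the mean ± SD. Enterocyte sums are highest in *Rnaseh2b*ΔIEC (17.68 to 17.85) and goblet sums lowest in both single knockouts (15.45 to 15.75).

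*Casp1* encodes the protease of the canonical inflammasome, and its level varied little between genotypes. It was 11.04, 11.01, 10.99 and 10.98 in WT and 11.11, 11.06, 11.16 and 11.14 in *Atg16l1*ΔIEC libraries 1 to 4. It was 11.04 and 11.04 in *Rnaseh2b*ΔIEC and 11.02, 10.96, 10.87 and 10.84 in DKO libraries. All *Atg16l1*ΔIEC libraries were above all others, and the lowest values were those of DKO libraries 3 and 4.

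*Casp1* fell by 0.19 in DKO against *Atg16l1*ΔIEC (SE 0.04, limma adjusted p = 0.0039), to 0.88 times the *Atg16l1*ΔIEC level. The difference of -0.12 in DKO against *Rnaseh2b*ΔIEC did not pass (limma adjusted p = 0.077). Against WT it did not pass in *Atg16l1*ΔIEC (0.11, limma adjusted p = 0.063), *Rnaseh2b*ΔIEC (0.03, limma adjusted p = 0.61) or DKO (-0.08, limma adjusted p = 0.14). The interaction was -0.23 (SE 0.06, limma adjusted p = 0.011). Within lane 2 the fall against *Atg16l1*ΔIEC was -0.13 (adjusted p = 0.081), with the random pair block its adjusted p was 0.055, and with lane as a covariate the interaction was -0.03 (adjusted p = 0.81). The *Atg16l1*ΔIEC difference from WT passed without *Atg16l1*ΔIEC library 2 or DKO library 1 or 4 (0.11 to 0.13), and the DKO difference from WT passed with lane as a covariate (-0.15, adjusted p = 0.016).

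*Casp4* encodes the lipopolysaccharide-binding caspase of the non-canonical pathway and was highest in *Atg16l1*ΔIEC organoids. It was 9.41, 9.51, 9.58 and 9.58 in *Atg16l1*ΔIEC and 9.28, 9.27, 9.25 and 9.23 in WT libraries 1 to 4. It was 9.34 and 9.29 in *Rnaseh2b*ΔIEC and 9.25, 9.05, 9.32 and 9.31 in DKO libraries. Every *Atg16l1*ΔIEC library was above every library of the other genotypes, and DKO ranged from below to above WT.

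*Casp4* rose by 0.26 in *Atg16l1*ΔIEC against WT (SE 0.06, limma adjusted p = 0.0080), 1.20-fold, and fell by 0.29 in DKO against *Atg16l1*ΔIEC (SE 0.06, limma adjusted p = 0.0042). The interaction was -0.34 (SE 0.09, limma adjusted p = 0.012), and without *Rnaseh2b*ΔIEC library 1 it was -0.31 (adjusted p = 0.061). Differences from WT were 0.05 in *Rnaseh2b*ΔIEC (95% interval -0.10 to 0.20, limma adjusted p = 0.62) and -0.03 in DKO (95% interval -0.15 to 0.10, limma adjusted p = 0.76). With the random pair block none of the 3 calls held, at adjusted p of 0.139, 0.082 and 0.128. With lane as a covariate all 3 did, with values of 0.42, -0.37 and -0.59, and within lane 2 the fall against *Atg16l1*ΔIEC did. The difference of *Rnaseh2b*ΔIEC from *Atg16l1*ΔIEC was -0.21 (95% interval of the difference -0.36 to -0.06, limma adjusted p = 0.098), with both in lane 2, and it passed with lane as a covariate (adjusted p = 0.0381).

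*Pycard* encodes the adaptor ASC. It was 11.66, 11.67, 11.67 and 11.77 in WT and 11.80, 11.78, 11.90 and 11.84 in *Atg16l1*ΔIEC libraries 1 to 4. It was 11.94 and 11.89 in *Rnaseh2b*ΔIEC and 11.83, 11.85, 11.64 and 11.67 in DKO libraries. WT lay below both single knockouts without overlap, while DKO libraries 1 and 2 were at the level of *Atg16l1*ΔIEC and libraries 3 and 4 at that of WT.

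*Pycard* rose by 0.22 in *Rnaseh2b*ΔIEC against WT (SE 0.06, limma adjusted p = 0.017), 1.16-fold, and did not pass in *Atg16l1*ΔIEC (0.14, limma adjusted p = 0.0615) or DKO (0.05, limma adjusted p = 0.47), nor did its difference of -0.16 in DKO against *Rnaseh2b*ΔIEC (limma adjusted p = 0.059). The interaction was -0.30 (SE 0.08, limma adjusted p = 0.0089). With lane as a covariate the rise was 0.03 (adjusted p = 0.76) and the interaction -0.02 (adjusted p = 0.86), and neither call held with the random pair block. The rise lost its call without either *Rnaseh2b*ΔIEC library (0.19 and 0.24), the interaction without *Rnaseh2b*ΔIEC library 1 (-0.28), and the *Atg16l1*ΔIEC difference from WT passed without WT library 4 or DKO library 1, 2 or 3 (0.14 to 0.16).

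*Gsdmd* encodes the pore-forming executor that both caspases cleave. It was 9.95, 9.85, 9.76 and 9.79 in WT and 9.51, 9.96, 9.97 and 9.75 in *Atg16l1*ΔIEC libraries 1 to 4. It was 9.59 and 9.89 in *Rnaseh2b*ΔIEC and 8.86, 9.11, 9.95 and 10.01 in DKO libraries. DKO libraries 1 and 2 were the lowest of all 14, and DKO libraries 3 and 4 were among the highest. The DKO mean was 9.48 ± 0.58 (SD, n = 4), against 9.84 ± 0.08 (SD, n = 4) in WT.

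*Gsdmd* passed in no comparison in limma, and none of its comparisons had an unadjusted p under 0.05. The difference from WT was -0.36 in DKO (95% interval -0.82 to 0.11, limma adjusted p = 0.27), -0.10 in *Rnaseh2b*ΔIEC (95% interval -0.67 to 0.47) and -0.04 in *Atg16l1*ΔIEC (95% interval -0.51 to 0.42). The 2 low DKO libraries were in lane 2 and the 2 high ones in lane 1, so lane and pair cannot be told apart there. Within lane 2, DKO was lower than *Atg16l1*ΔIEC by 0.82 (adjusted p = 0.016) and than *Rnaseh2b*ΔIEC by 0.76 (adjusted p = 0.0061), and within lane 1 it differed from WT by 0.14 (adjusted p = 0.16). With lane as a covariate the differences of *Rnaseh2b*ΔIEC and *Atg16l1*ΔIEC from WT turned to 0.90 (adjusted p = 0.00996) and 0.95 (adjusted p = 0.0052). The interaction of *Gsdmd* also passed in that fit.

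*Gsdmc4* was the only gene of its cluster with a row that was used, and its mean of -1.17 was far under the filter. Its values over the 14 libraries spanned 0.0136 with an SD of 0.0058, and no change can be read from values this low, which are pulled together in the deposited table. Among genes with a mean below 0 the median SD between libraries was 0.0039, against 0.151 for genes between 6 and 7. The 50-base reads of near-identical *Gsdmc* genes may also have been split or dropped in counting.

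Across the comparisons, the share of the 6 genes past the threshold is read against that of all 12802 genes tested. It was 3 of 6 in *Rnaseh2b*ΔIEC against WT, where 26.7% of all genes passed, 2 of 6 in *Atg16l1*ΔIEC against WT, where 19.1% passed, and 1 of 6 in DKO against WT, where 16.1% passed. In DKO it was 2 of 6 against *Rnaseh2b*ΔIEC, where 25.5% passed, and 4 of 6 against *Atg16l1*ΔIEC, where 25.1% passed. The interaction passed for 5 of 6, *Gsdmd* being the exception, where 35.1% of all genes passed. Between *Rnaseh2b*ΔIEC and *Atg16l1*ΔIEC limma called 0 of 6, with 2 at an unadjusted p under 0.05, where 6.81% passed.

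Against WT, the median difference of the 6 genes was 0.04 for *Rnaseh2b*ΔIEC, 0.12 for *Atg16l1*ΔIEC and -0.10 for DKO organoids, and against *Atg16l1*ΔIEC it was -0.24 for DKO, with medians over all genes between -0.0023 and 0.0024 in these comparisons. Libraries of the compared genotypes did not overlap for 4 of 6 genes in *Rnaseh2b*ΔIEC against WT, where this held for 55.5% of all genes, for 4 of 6 in *Atg16l1*ΔIEC against WT (24.6%) and for 1 of 6 in DKO against WT (22.3%). DKO did not overlap *Rnaseh2b*ΔIEC for 4 of 6 (49.9%) or *Atg16l1*ΔIEC for 3 of 6 (23.9%), and *Rnaseh2b*ΔIEC did not overlap *Atg16l1*ΔIEC for 3 of 6 (37.8%). These comparisons share libraries and are not independent of each other.

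**Figure D3:**
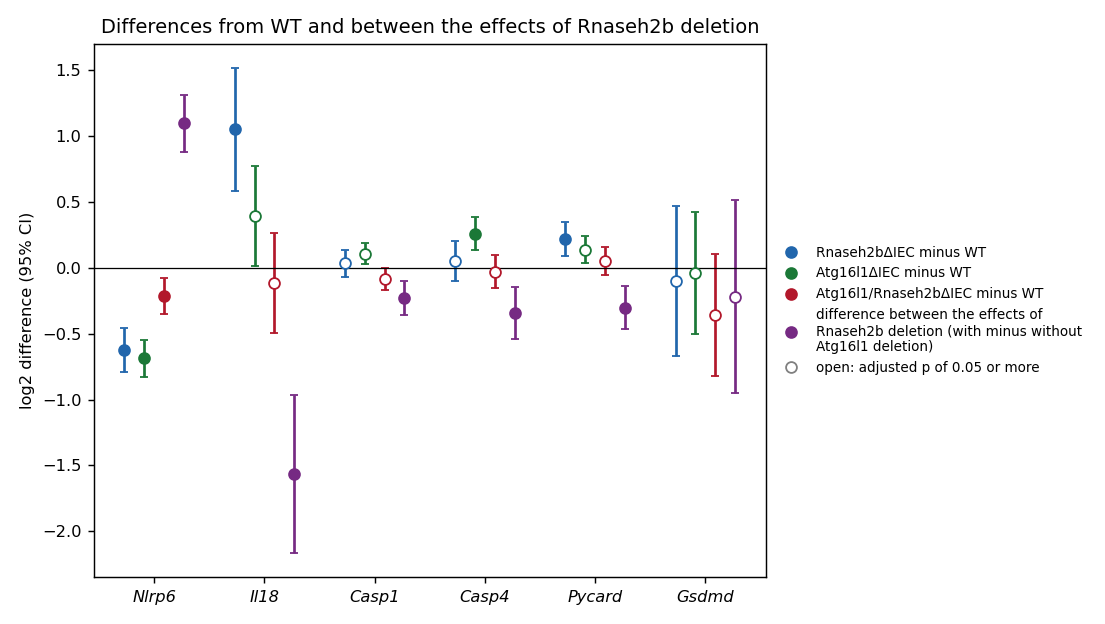
Log2 difference of the 6 genes from WT in each knockout, and the interaction, DKO minus *Atg16l1*ΔIEC less *Rnaseh2b*ΔIEC minus WT (vertical axis, limma estimate with 95% interval), by gene. Filled points have an adjusted p under 0.05 and open points do not. *Nlrp6* and *Il18* have the largest interactions, 1.10 and -1.56, in opposite directions.

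Genes whose values were most like those of each gene over the 14 libraries were found by the root mean square difference of z-scores. For *Il18* they were *Vat1* (0.16) and *Slc6a20a* (0.19), and for *Nlrp6* they were *Ndrg1* (0.29) and *Kdm4b* (0.30). For *Casp1* they were *Nit2* (0.28) and *Irf2* (0.29), for *Pycard* *Ndfip1* (0.29) and *Pgrmc1* (0.33), for *Gsdmd* *H2-M3* (0.35) and *Hsf4* (0.40), and for *Casp4* *Tatdn3* and *Parp10* (both 0.45). *Il18* thus had the closest counterparts and *Casp4* the least close. *Slc6a20a* encodes an amino acid transporter, *Ndrg1* a stress- and differentiation-related protein, *Irf2* a transcription factor of the interferon regulatory family and *Parp10* a mono-ADP-ribosyltransferase.

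The other genes of the pathway were taken from 7 lists of gasdermins, sensors, caspases and adaptors, interleukin-1 family cytokines and receptors, priming and interferon signalling, the type 2 programme, and execution or restraint of pyroptosis. They held 86 genes besides those above, of which 63 passed the filter. Against WT, 6 of 63 were higher and 10 lower in *Rnaseh2b*ΔIEC (25.4% called), 5 higher and 5 lower in *Atg16l1*ΔIEC (15.9%), and 4 higher and 8 lower in DKO (19%). In DKO, 4 were higher and 10 lower than in *Atg16l1*ΔIEC (22.2%), and 5 higher and 7 lower than in *Rnaseh2b*ΔIEC (19%). The shares over all genes in the same comparisons were 26.7%, 19.1%, 16.1%, 25.1% and 25.5%, in this order.

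*Gsdme*, a gasdermin cleaved by caspase-3, was the only other gasdermin past the filter. It averaged 7.11 ± 0.05 (SD, n = 4) over WT, 7.24 ± 0.10 (SD, n = 4) over *Atg16l1*ΔIEC, 7.30 ± 0.01 (SD, n = 2) over *Rnaseh2b*ΔIEC and 7.09 ± 0.09 (SD, n = 4) over DKO libraries. It fell by 0.21 in DKO against *Rnaseh2b*ΔIEC (limma adjusted p = 0.042). *Gsdma*, *Gsdma2* and *Pjvk* were under the filter.

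Among the sensors, 11 of 15 passed the filter, and 1 rose and 3 fell in *Rnaseh2b*ΔIEC, 1 rose in *Atg16l1*ΔIEC and 3 fell in DKO against WT. *Nlrp3* and *Nlrp12* were under the filter, with means of -0.24 and -2.13. The *Naip* genes encode receptors that bind flagellin or type III secretion proteins and activate NLRC4. In *Rnaseh2b*ΔIEC, *Naip5* fell by 0.92 (limma adjusted p = 0.0061) and *Naip6* by 0.70 (limma adjusted p = 0.0029), while *Naip1* rose by 0.89 (limma adjusted p = 0.020). In DKO, *Naip5* fell by 0.69 (limma adjusted p = 0.017) and *Naip6* by 0.47 (limma adjusted p = 0.015). *Naip* genes are close paralogs on chromosome 13 whose reads may be split in counting, and with lane as a covariate none of the 3 differences in *Rnaseh2b*ΔIEC passed, nor did that of *Naip5* in DKO (-0.31), while *Naip6* in DKO was -0.21 and passed. *Nlrp9b*, an epithelial sensor of viral RNA, fell by 0.67 in DKO (limma adjusted p = 0.029) and not with lane as a covariate.

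Of 6 other caspases and adaptors, none passed in *Rnaseh2b*ΔIEC, 1 rose and 1 fell in *Atg16l1*ΔIEC and 1 rose in DKO against WT. *Casp8*, the initiator of death receptor apoptosis, fell by 0.18 in *Atg16l1*ΔIEC (limma adjusted p = 0.027), and *Casp12*, a neighbour of *Casp4* with a level near the filter, rose by 0.10 (limma adjusted p = 0.036). *Nek7*, a kinase that binds NLRP3, rose by 0.23 in DKO (limma adjusted p = 0.039). None of these 3 held with lane as a covariate.

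Of 9 other genes of the cytokine list past the filter, 2 rose and 2 fell in *Rnaseh2b*ΔIEC and 1 fell in *Atg16l1*ΔIEC, while in DKO limma called 0 against WT. *Il1rn*, which encodes the interleukin-1 receptor antagonist, averaged 8.48 ± 0.53 (SD, n = 4) over WT, 7.90 ± 0.34 (SD, n = 4) over *Atg16l1*ΔIEC, 7.49 ± 0.11 (SD, n = 2) over *Rnaseh2b*ΔIEC and 8.86 ± 0.35 (SD, n = 4) over DKO libraries. It fell by 0.99 in *Rnaseh2b*ΔIEC against WT (limma adjusted p = 0.027) and was higher in DKO by 1.36 than in *Rnaseh2b*ΔIEC (limma adjusted p = 0.0059) and by 0.96 than in *Atg16l1*ΔIEC (limma adjusted p = 0.014). *Il18r1*, the ligand-binding chain of the interleukin-18 receptor, fell by 0.28 in *Atg16l1*ΔIEC (limma adjusted p = 0.0085) and by 0.36 in *Rnaseh2b*ΔIEC (limma adjusted p = 0.0050), and in DKO it was above both. With lane as a covariate, the differences of *Il1rn* and *Il18r1* from WT and that of *Il1rn* between DKO and *Atg16l1*ΔIEC (0.66) did not pass, and *Il18r1* in DKO against *Atg16l1*ΔIEC was 0.17 and passed. *Il22ra1*, a receptor chain for the epithelial cytokine interleukin-22, rose by 0.42 in *Rnaseh2b*ΔIEC (limma adjusted p = 0.00053). *Il1rap*, the shared receptor chain of the interleukin-1 family, fell by 0.33 in DKO against *Atg16l1*ΔIEC (limma adjusted p = 0.0057). *Il1a* and *Il18rap* were under the filter, and *Il1b* was not analysed here.

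Of 15 priming and interferon genes, 1 rose and 2 fell in *Rnaseh2b*ΔIEC, 2 rose and 1 fell in *Atg16l1*ΔIEC, and 2 rose and 2 fell in DKO against WT. *Tnfaip3*, a deubiquitinase that restrains NF-kappaB, was down in every knockout against WT and fell by 0.83 in *Rnaseh2b*ΔIEC (limma adjusted p = 0.00013), by 0.57 in *Atg16l1*ΔIEC (limma adjusted p = 0.00047) and by 0.37 in DKO (limma adjusted p = 0.0097). *Myd88*, the adaptor of most Toll-like receptors and of the interleukin-18 receptor, rose by 0.21 in *Rnaseh2b*ΔIEC (limma adjusted p = 0.012), 0.22 in *Atg16l1*ΔIEC (limma adjusted p = 0.0045) and 0.15 in DKO (limma adjusted p = 0.038). *Ticam1*, the adaptor TRIF, fell by 0.28 in DKO (limma adjusted p = 0.0033) and by 0.19 in *Rnaseh2b*ΔIEC (limma adjusted p = 0.031), and *Tlr5*, the flagellin receptor, fell by 0.42 in DKO against *Atg16l1*ΔIEC (limma adjusted p = 0.031), and the lane term took this to -0.65. The 3 *Tnfaip3* differences held with lane as a covariate, and the 3 *Myd88* differences and that of *Ticam1* in *Rnaseh2b*ΔIEC (-0.06) did not.

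In the type 2 list, to which the *Gsdmc* genes are linked, limma called 0 rises and 3 falls of 9 genes in *Rnaseh2b*ΔIEC, 2 falls in *Atg16l1*ΔIEC and 2 falls in DKO against WT. *Clca1*, a secreted goblet cell protein that is also among the goblet markers, fell by 1.68 in *Rnaseh2b*ΔIEC (limma adjusted p = 6.5e-06), 0.91 in *Atg16l1*ΔIEC (limma adjusted p = 0.00011) and 0.50 in DKO (limma adjusted p = 0.0078). *Sprr2a3*, a small proline-rich protein of the epithelium with close paralogs, fell by 0.68 in *Rnaseh2b*ΔIEC (limma adjusted p = 0.016) and by 0.68 in DKO (limma adjusted p = 0.011). Neither *Sprr2a3* difference passed with lane as a covariate (-0.25 and -0.46) or with the random pair block. *Ang4*, an antimicrobial ribonuclease that is also among the Paneth markers, was higher by 0.63 in DKO than in *Atg16l1*ΔIEC (limma adjusted p = 0.0043), and *Dclk1*, a tuft cell marker, fell by 0.41 in *Rnaseh2b*ΔIEC (limma adjusted p = 0.017), and the lane term took this to -0.71. *Il25* and *Retnlb* were under the filter.

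Of 12 genes of execution and restraint, 2 rose in *Rnaseh2b*ΔIEC, 1 rose in *Atg16l1*ΔIEC, and 1 rose and 1 fell in DKO against WT. *Serpinb1a*, an inhibitor of neutrophil-type proteases and of inflammatory caspases, rose by 0.24 in *Rnaseh2b*ΔIEC (limma adjusted p = 0.0028) and by 0.14 in *Atg16l1*ΔIEC (limma adjusted p = 0.022). *Zdhhc5*, which encodes a palmitoyltransferase, rose by 0.12 in *Rnaseh2b*ΔIEC (limma adjusted p = 0.034) and by 0.13 in DKO (limma adjusted p = 0.018). *Serpinb6a* fell by 0.17 in DKO against *Rnaseh2b*ΔIEC (limma adjusted p = 0.022), and *Zdhhc9*, another palmitoyltransferase, passed for the interaction alone (-0.24, limma adjusted p = 0.047). None of these *Serpinb1a*, *Zdhhc5*, *Serpinb6a* and *Zdhhc9* calls held with lane as a covariate. Of 66 calls for the 24 list genes named here, 33 held with lane as a covariate, 14 with the random pair block and 28 in every fit that left out 1 library.

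**Figure D4:**
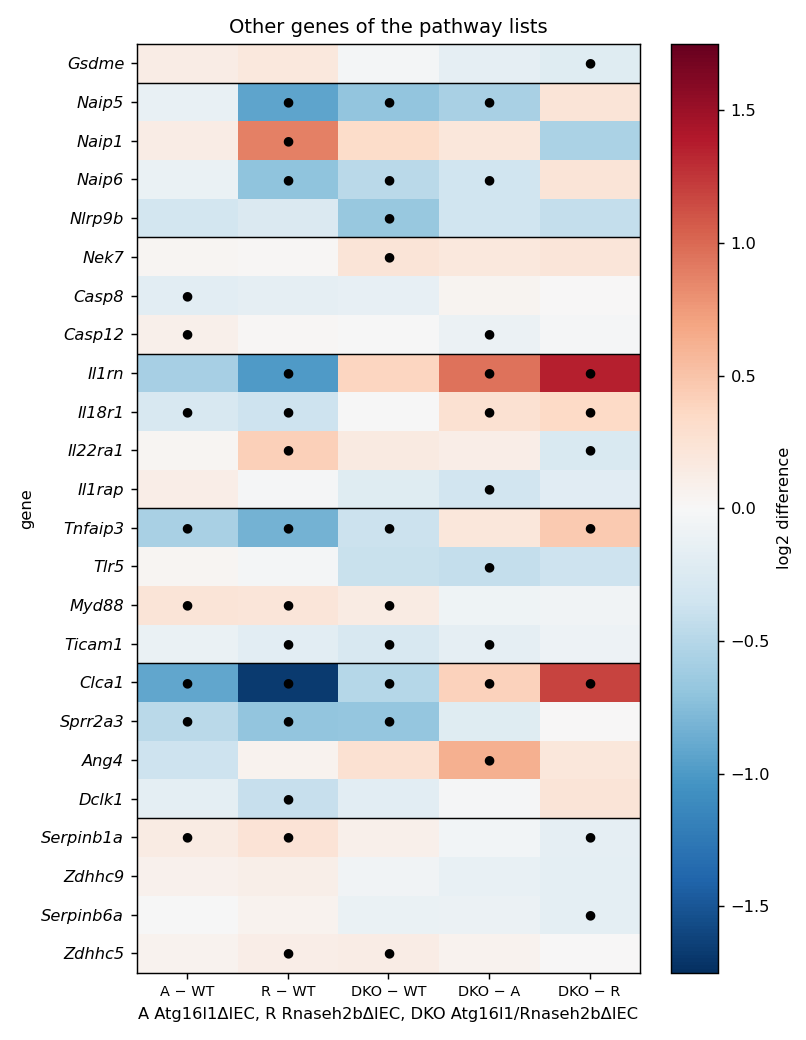
Log2 difference (colour, blue lower and red higher) of the 24 other list genes named in the text in 5 comparisons, with A for *Atg16l1*ΔIEC, R for *Rnaseh2b*ΔIEC and DKO as in the text. Dots mark an adjusted p under 0.05 in limma, and lines separate the 7 lists. *Clca1* in *Rnaseh2b*ΔIEC against WT (-1.68) and *Il1rn* in DKO against *Rnaseh2b*ΔIEC (1.36) are the extremes.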

How the data were processed

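Total RNA of 14 small intestinal organoid samples was sequenced as TruSeq stranded mRNA in 50-base single reads. By the study's methods, the authors used cutadapt for adapters, TopHat2 for alignment (GRCm38), HTSeq for read counts and DESeq2 afterwards, and versions are not given in the sources used here. The authors deposited 18781 genes by 14 libraries on a log2 scale, from -2.13 to 17.45. Their transformation is not named, low genes vary little between libraries, and their fold changes are understated. The depth is unknown, whole reads cannot be recovered, and no count model was run. All columns were mapped to samples by name, and 0 were left out. Symbols, coordinates and exon lengths came from GENCODE M21, with a symbol for 99.7% of identifiers.

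Tests covered the 12802 genes whose mean reached 3.32 (10 before taking the log2), with limma 3.58.1 in R 4.3.3 (lmFit, contrasts.fit, eBayes with a mean trend), with 1 mean per genotype, no covariate and Benjamini-Hochberg adjustment at 0.05. Because the values are already on a log2 scale, no pseudocount was used. Marker sums are log2 of summed back-transformed values. The labels do not say whether replicate numbers pair samples across genotypes, and same-numbered libraries did not deviate together throughout. Libraries 1 and 2, and 3 and 4, of WT, *Atg16l1*ΔIEC and DKO did.

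The genes and lists were chosen with earlier results of these data known. Named list genes were, per list, up to 4 past the threshold in any comparison with the largest absolute differences, and for each gene past the filter the 2 most alike genes over the libraries. Stem cell, goblet and enterocyte markers, single leukocyte markers and the genes under the filter are named besides, and 1 list gene that met the rule is not reported here. Alternatives were pseudocounts of 0.5, 1 and 5 on back-transformed values, no filter, a filter at 50, scaling to the upper quartile or the total, a lane term, a replicate number block, only the groups or the lane compared, pairs of libraries as a random block or averaged, no mean trend, and leaving out each library. Figures were drawn with matplotlib 3.10.9.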

Additional observations from a re-analysis of the deposited data

Results flagged for a closer look

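The interaction, DKO minus *Atg16l1*ΔIEC less *Rnaseh2b*ΔIEC minus WT, compares the difference that went with *Rnaseh2b* deletion between the *Atg16l1* backgrounds. More of each deleted gene was left in DKO than in its single knockout, by 1.46 for *Atg16l1* and 0.63 for *Rnaseh2b*. An interaction and a weaker deletion in DKO cannot be told apart here. In limma the interaction passed for 5 of the 6 genes past the filter, against 35.1% of all genes. It was 1.0977 for *Nlrp6*, -1.5637 for *Il18*, -0.3407 for *Casp4*, -0.3019 for *Pycard* and -0.2272 for *Casp1*. *Nlrp6* was lower in *Rnaseh2b*ΔIEC than in WT libraries (2 of 2 below all 4) and higher in DKO than in *Atg16l1*ΔIEC libraries (4 of 4 above all 4). *Il18* was higher in *Rnaseh2b*ΔIEC than in WT (2 of 2 above all 4), while DKO and *Atg16l1*ΔIEC overlapped. With lane as a covariate 3 interactions passed, those of *Nlrp6* (0.98) and *Casp4* (-0.59) and that of *Gsdmd*, which had not passed without it. Those of *Il18*, *Pycard* and *Casp1* did not.

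*Pycard* in WT library 4 stood apart from the other 3 WT libraries, with a gap of 0.8957 of the whole range of the group, above the 95% critical value of Dixon's test. It was 1 of 21 groups of 4 libraries looked at, and chance gives about 1 in 20. Without that library the difference of *Atg16l1*ΔIEC from WT was 0.16 (limma adjusted p = 0.047), against 0.14 with it.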

How the results depend on the processing

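Of 42 differences (6 genes in 7 comparisons), 17 passed the threshold. With the replicate block 15 of 17 kept their call, with lane as a covariate 10, with the random pair block 8 (*Nlrp6* in 5 comparisons and *Il18* in 3), and 11 in every fit that left out 1 library. With pairs averaged the count of genes past the threshold was 0 in the 6 comparisons that had any, where each genotype has 2 values or fewer and no more than 2 of all 12802 genes called in any comparison. *Atg16l1*ΔIEC against WT gave 4 genes with upper quartile scaling, 4 with only the groups compared and 1 with the random pair block, against 2. DKO against WT gave 0 with no filter and 0 with the random pair block, against 1. DKO against *Atg16l1*ΔIEC gave 1 with the random pair block, against 4, *Rnaseh2b*ΔIEC against *Atg16l1*ΔIEC gave 2 with lane, against 0, and the interaction gave 3 with lane and 2 with the random pair block, against 5. Calls over all genes moved too. The random pair block gave 384 in place of 2450 in *Atg16l1*ΔIEC against WT, 85 in place of 2063 in DKO against WT, 478 in place of 3218 in DKO against *Atg16l1*ΔIEC and 1553 in place of 4499 for the interaction, and with lane the interaction had 2580 and *Rnaseh2b*ΔIEC against *Atg16l1*ΔIEC 1622 in place of 872. Over the fits that left out 1 library, the counts were 1 to 3 in *Rnaseh2b*ΔIEC, 2 to 4 in *Atg16l1*ΔIEC and 0 to 1 in DKO against WT, 2 to 4 in DKO against *Rnaseh2b*ΔIEC, 3 to 4 in DKO against *Atg16l1*ΔIEC, 0 to 1 in *Rnaseh2b*ΔIEC against *Atg16l1*ΔIEC and 3 to 5 for the interaction. Besides the calls named with each gene, *Casp1* (-0.15) and *Pycard* (-0.19) passed in DKO against *Rnaseh2b*ΔIEC without DKO library 1, *Pycard* (-0.20) also without library 2, and *Casp4* (-0.21) in *Rnaseh2b*ΔIEC against *Atg16l1*ΔIEC without DKO library 2.

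Correlations of same-numbered libraries across genotypes ran from -0.50 to 0.44, with 7 of 18 over 0.1, which cannot show whether the numbers pair samples. The replicate block left the counts of genes past the threshold at 2 in *Rnaseh2b*ΔIEC against WT and 3 in DKO against *Atg16l1*ΔIEC. These were 3 and 4 without it, and the calls lost were those of *Pycard* and *Il18*.

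Signs turned only for differences that had not passed. With lane as a covariate these were *Gsdmd* (0.90) and *Casp1* (-0.098) in *Rnaseh2b*ΔIEC against WT, *Gsdmd* (0.95), *Casp1* (-0.0255), *Il18* (-0.0060) and *Pycard* (-0.0465) in *Atg16l1*ΔIEC against WT, and, with the same values within a lane, *Gsdmd* (0.14), *Casp4* (0.0531) and *Pycard* (-0.0383) in DKO against WT and *Pycard* (0.0082) in DKO against *Atg16l1*ΔIEC. Total scaling turned *Casp1* in *Rnaseh2b*ΔIEC against WT (-0.0022), the replicate block turned *Gsdmd* in *Rnaseh2b*ΔIEC against WT (0.0669) and *Rnaseh2b*ΔIEC against *Atg16l1*ΔIEC (0.11). Over the fits that left out 1 library, *Gsdmd* ran from -0.2515 to 0.0518 in *Rnaseh2b*ΔIEC against WT (turned without *Rnaseh2b*ΔIEC library 1), from -0.2109 to 0.0924 in *Rnaseh2b*ΔIEC against *Atg16l1*ΔIEC (likewise) and from -0.0985 to 0.0546 in *Atg16l1*ΔIEC against WT (turned without *Atg16l1*ΔIEC library 1), and *Casp4* from -0.0576 to 0.0316 in DKO against WT (turned without DKO library 2). The causes were not tested. Upper quartile and total scaling moved a library by at most 0.017 and 0.039.

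The sum of *Gsdmc2*, *Gsdmc3* and *Gsdmc4* was not run, since a row was used for *Gsdmc4* alone. Lane effects can be estimated only from DKO libraries, in which lane and pair cannot be told apart. *Rnaseh2b*ΔIEC rests on 2 libraries, and the depth is unknown.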
